A study of Mus musculus with 16 samples.

Results

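Abca4, Rdh8, Rdh11, Rdh12, Rdh13, Rdh14 and Rbp3, which handle the retinoids that rods release after light, were examined in sorted mouse rod photoreceptors at 4 ages. They form a list of symbols and are 7 of the 45594 genes in the authors' deposited gene table. The donor mice were C57BL/6J carrying green fluorescent protein under the promoter of Nrl, a transcription factor of rods (strain label Nrlp-GFP), and green cells were collected by flow sorting. The groups are rods of mice aged 3, 12, 18 and 24 months (labels 3M, 12M, 18M and 24M). Each age has 4 libraries, called biological replicates in the design text. All 16 libraries carry the same reporter, and no other allele or agent is labelled. The labels do not say if each came from a single mouse or from pooled mice, so p-values measure the spread between these libraries.

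Light turns the 11-cis-retinal of the visual pigment into all-trans-retinal, a reactive aldehyde that must leave the disc membranes of the rod outer segment. Abca4, a lipid flippase of the disc rim, moves the conjugate of retinal and phosphatidylethanolamine to the cytoplasmic side, and retinol dehydrogenases reduce the freed aldehyde to retinol. Rbp3, the interphotoreceptor retinoid-binding protein secreted by photoreceptors, carries retinoids through the matrix between photoreceptors and the retinal pigment epithelium (RPE), where Lrat and Rpe65 rebuild 11-cis-retinoid. Loss of ABCA4 or RDH12 in humans causes inherited retinal degeneration.

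Total RNA was read to between 20579144 and 28791777 estimated counts per library. The sort label was checked against markers: Nrl averaged 630 CPM (counts per library total, adjusted with TMM factors) over the 16 libraries. The summed level of 8 rod markers was 24600 to 32400 CPM in 24M libraries and 30800 to 34300 CPM in 3M libraries, and 0 of the 8 passed the test at 24M against 3M. It was 24200 to 29000 CPM in 18M libraries, all below the 3M libraries, and 26700 to 35500 CPM in 12M libraries. The summed level of 13 RPE markers was 24.2 to 36.5 CPM in 24M libraries and 19.8 to 29.3 CPM in 3M libraries. Among them Rpe65 was listed at 0 in 8 libraries and Tyrp1 at 0 in 15. Rlbp1 (mean 16.4 CPM) and Tyr (mean 4.71 CPM) were above 0 in every library. Rlbp1 is also in the Müller glia list, so the RPE sum is not a reading of RPE alone. The summed level of 10 Müller glia markers was 268 to 378 CPM in 24M libraries and 193 to 317 CPM in 3M libraries, and 1 of them rose at 24M, Car2, named after its value was seen. The Müller glia sum was 229 to 365 CPM in 18M libraries and 213 to 533 CPM in 12M libraries. The summed level of 8 bipolar cell markers was 356 to 409 CPM in 24M libraries and 371 to 422 CPM in 3M libraries. For 10 cone markers it was 60.3 to 81.3 CPM at 24M and 48.1 to 102 CPM at 3M. The part of these shifts in the results below was not tested. In bulk RNA, fewer cells of a type and less RNA per cell cannot be told apart.

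Abca4 and Rbp3 had the highest levels of the 7 genes, and their promoters are the only ones among those of 6 members found in RefSeq (GRCm38.p6) that hold TAATCC, a core letter string bound by homeodomain factors such as Crx. The windows run from 250 bases before to 50 bases after the annotated start, on the + strand, and both are shown because of that shared string. Besides TAATCC, the windows were searched on both strands for TGCTGA, a core of Nrl and Maf sites. The nuclear receptor core AGGTCA and the basal promoter element TATAAA were searched in the same way. The strings share no overlap in these windows, and capitals mark each match.
Abca4 promoter, chr3:122044210-122044509: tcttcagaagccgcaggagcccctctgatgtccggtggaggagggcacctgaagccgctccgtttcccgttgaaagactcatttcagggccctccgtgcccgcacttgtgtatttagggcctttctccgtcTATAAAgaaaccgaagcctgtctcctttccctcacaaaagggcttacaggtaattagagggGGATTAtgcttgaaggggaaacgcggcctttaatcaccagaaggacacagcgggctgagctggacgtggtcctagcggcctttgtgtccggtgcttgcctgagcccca
Rbp3 promoter, chr14:33953753-33954052: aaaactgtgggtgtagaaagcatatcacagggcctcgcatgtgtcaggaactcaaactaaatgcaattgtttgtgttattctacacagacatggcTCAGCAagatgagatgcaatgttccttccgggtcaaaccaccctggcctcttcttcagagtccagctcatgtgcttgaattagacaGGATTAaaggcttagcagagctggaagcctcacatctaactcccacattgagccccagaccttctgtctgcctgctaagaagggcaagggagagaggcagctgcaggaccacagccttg
GGATTA is TAATCC read on the other strand, and TCAGCA is TGCTGA read on the other strand. Of 32851 promoters of the same length, 7.06% held TAATCC, 19.5% TGCTGA, 16.3% AGGTCA and 13.6% TATAAA. The Rdh8, Rdh12 and Rdh14 windows also held TGCTGA, and 1 of the 2 Rdh11 windows held AGGTCA. A match is a string of letters and is not shown to be a bound site.

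Compared per length of transcript, in TPM (a scale that divides counts by transcript length and gives each library the same total, mean ± SD over the 16 libraries), Abca4 stood highest at 389 ± 84. Rbp3 followed at 211 ± 32.9 TPM, and Rdh12 at 146 ± 15.4 TPM was the most abundant dehydrogenase of the group. Rdh8 averaged 39.8 ± 6.43 TPM and Rdh11 14.9 ± 2.36 TPM. Each of these genes was above the next in all 16 libraries. Rdh13 at 7.62 ± 1.18 TPM and Rdh14 at 7.57 ± 1.37 TPM formed the low end, and Rdh13 was above Rdh14 in only 10 of 16 libraries. The steps were 1.84-fold from Abca4 to Rbp3, 1.44-fold from Rbp3 to Rdh12 and 3.68-fold from Rdh12 to Rdh8. Ranked by mean CPM among all genes, Abca4 was at place 32, Rbp3 at 56 and Rdh12 at 281, whereas Rdh14 was at 7864.

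None of the 7 genes passed the test at any age. With edgeR's quasi-likelihood test and Benjamini-Hochberg adjustment over 12177 genes, 0 of 7 were called at 24M against 3M, where 4.25% of all tested genes were. At 18M against 3M 0 of 7 were called, against 2.64% of all genes, and at 12M against 3M 0 of 7, against 1.39%. An F-test for any difference among ages called 0 of 7, against 2.82% of all genes, and a linear change with age called 0 of 7, against 4.8%. DESeq2 and limma voom called 0 of 7 at 24M too, whereas voom with quality weights called Rdh8 and Rdh12, among 3311 genes in all. At an unadjusted p under 0.05, 2 of 7 passed at 24M (Rdh12 and Rdh14; 14% of all genes), 2 at 18M (Rdh8 and Rdh12; 12.4%) and 1 at 12M (Rdh12; 9.15%). At 24M 6 of the 7 log2 differences were negative, among them Rdh13 at only -0.00165. The median was -0.13, beside a median of 0.01 over all tested genes. The comparisons share the 3M libraries, so their values are not independent of each other.

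**Figure D1:**
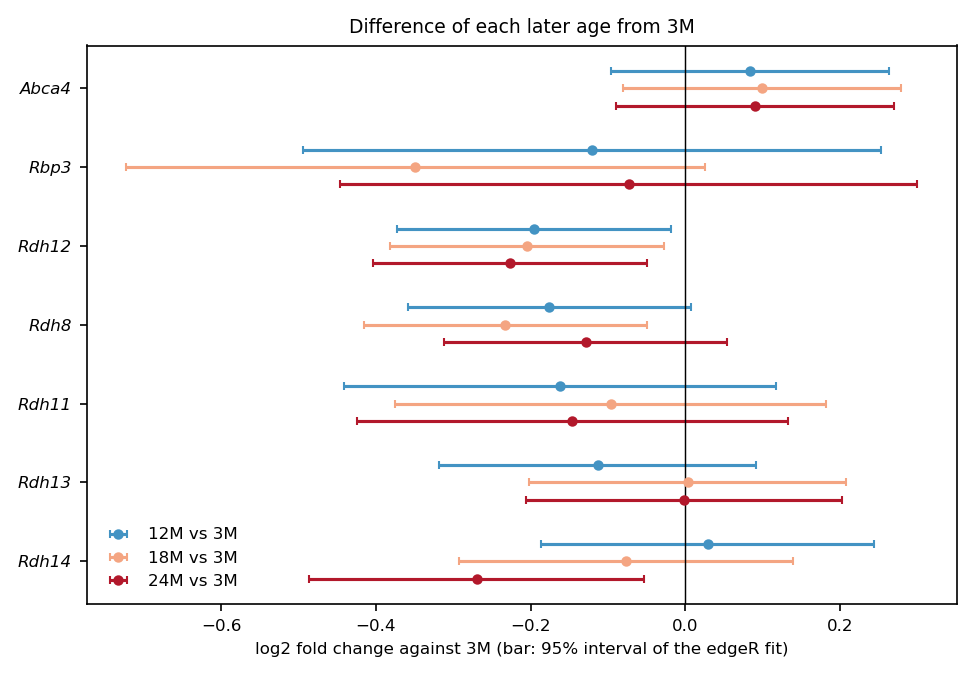
Log2 difference of each later age from 3M for the 7 genes, with the 95% interval of the edgeR fit (n = 4 libraries per age). Rdh12 lies below 0 at all 3 later ages, Abca4 lies slightly above 0, and no gene passed after adjustment.

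Abca4 (ENSMUSG00000028125) spans chr3:122044443-122180123 on the + strand of GRCm38 and has up to 50 exons. It stood at 1954, 2042, 2144 and 2202 CPM in 3M rods, 2121, 2273, 2214 and 2230 in 12M rods, 2181, 2191, 2206 and 2358 in 18M rods, and 2103, 2132, 2535 and 2109 in 24M rods. The ages overlapped, and the highest library was 24M replicate 3. Means were 2220 ± 210 CPM at 24M and 2090 ± 110 CPM at 3M (SD, n = 4 each). The log2 difference was 0.09 (SE 0.0845, 95% interval -0.0897 to 0.27, edgeR adjusted p = 0.75), so a fold above 1.205 or below 0.94 lies outside the interval. At 18M the log2 difference was 0.10 (adjusted p = 0.67) and at 12M 0.08 (adjusted p = 0.74). In CPM, Abca4 was also the steadiest member within an age, with a coefficient of variation between libraries of 5.34%. Of all tested genes, 5.72% had a lower one. In TPM its libraries spread more, with 413 ± 108 TPM in 12M rods and 414 ± 112 TPM in 18M rods (SD, n = 4 each). Most of its counts, 85.7%, fell on the coding transcript Abca4-201 of 7263 bases. That share was 85.7 ± 1.34% at 24M and 86.5 ± 1.02% at 3M (exact permutation p = 0.4, two-sided, n = 4 each).

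Rdh8 and Rdh12 are the dehydrogenases that reduce all-trans-retinal in rods, Rdh8 in the outer segment and Rdh12 in the inner segment. Rdh8 (ENSMUSG00000053773, chr9:20818503-20826117, + strand) stood at 74.13, 86.38, 87.73 and 90.99 CPM in 3M rods, 76.1, 72.66, 74.04 and 77.49 in 12M rods, 73.05, 68.67, 64.3 and 82.6 in 18M rods, and 76.37, 71.39, 85.61 and 76.86 in 24M rods. Replicate 1 was low among the 3M libraries, and each later age overlapped 3M through it. Rdh8 averaged 77.6 ± 5.91 CPM at 24M and 84.8 ± 7.37 CPM at 3M (SD, n = 4 each), a log2 difference of -0.13 (95% interval -0.312 to 0.0543, edgeR adjusted p = 0.59). At 18M it averaged 72.2 ± 7.83 CPM, a log2 difference of -0.23 from 3M (unadjusted p = 0.016 in the edgeR fit, adjusted p = 0.24).

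Rdh12 (ENSMUSG00000021123, chr12:79208914-79222665, + strand) was, in TMM-scaled CPM, the only one of the 7 whose libraries did not overlap those of 3M at a later age, and this held at all 3. It stood at 456.7, 477.0, 462.0 and 478.3 CPM in 3M rods, 414.0, 375.8, 395.4 and 451.2 in 12M rods, 429.5, 411.6, 363.7 and 421.4 in 18M rods, and 368.1, 393.2, 447.2 and 393.0 in 24M rods. Every later library was below every 3M library, with 12M replicate 4 and 24M replicate 3 the nearest. Such a lower, non-overlapping pattern was seen in 2.67% of tested genes at 12M, 6.46% at 18M and 5.32% at 24M. The share of genes with it at all 3 ages was not counted. The 3 comparisons use the same 3M libraries, so they are not separate results. Means with SD were 468 ± 10.8 CPM in 3M rods, 409 ± 32.1 in 12M rods, 407 ± 29.5 in 18M rods and 400 ± 33.4 in 24M rods (n = 4 each). The log2 difference at 24M was -0.23 (SE 0.0833, 95% interval -0.404 to -0.0496, unadjusted p = 0.015, adjusted p = 0.18, edgeR), which is 0.855-fold. At 18M it was -0.20 (adjusted p = 0.3), and at 12M -0.20 (adjusted p = 0.46). In TPM, which divides by transcript length and has no TMM scaling, the ages overlapped, with 145 ± 13.3 TPM at 24M (133.0 to 157.3) and 149 ± 7.66 TPM at 3M (140.9 to 156.9). The mean was 145 TPM at 18M and 147 TPM at 12M. The linear change in the CPM fit over the 21 months was -0.22 (SE 0.0787, adjusted p = 0.15). Among 29 alternative analyses the 24M value ran from -0.31 to -0.17 and passed the test in 4, all of which leave out or down-weight libraries. With 24M replicate 3 left out, the linear test called it.

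**Figure D2:**
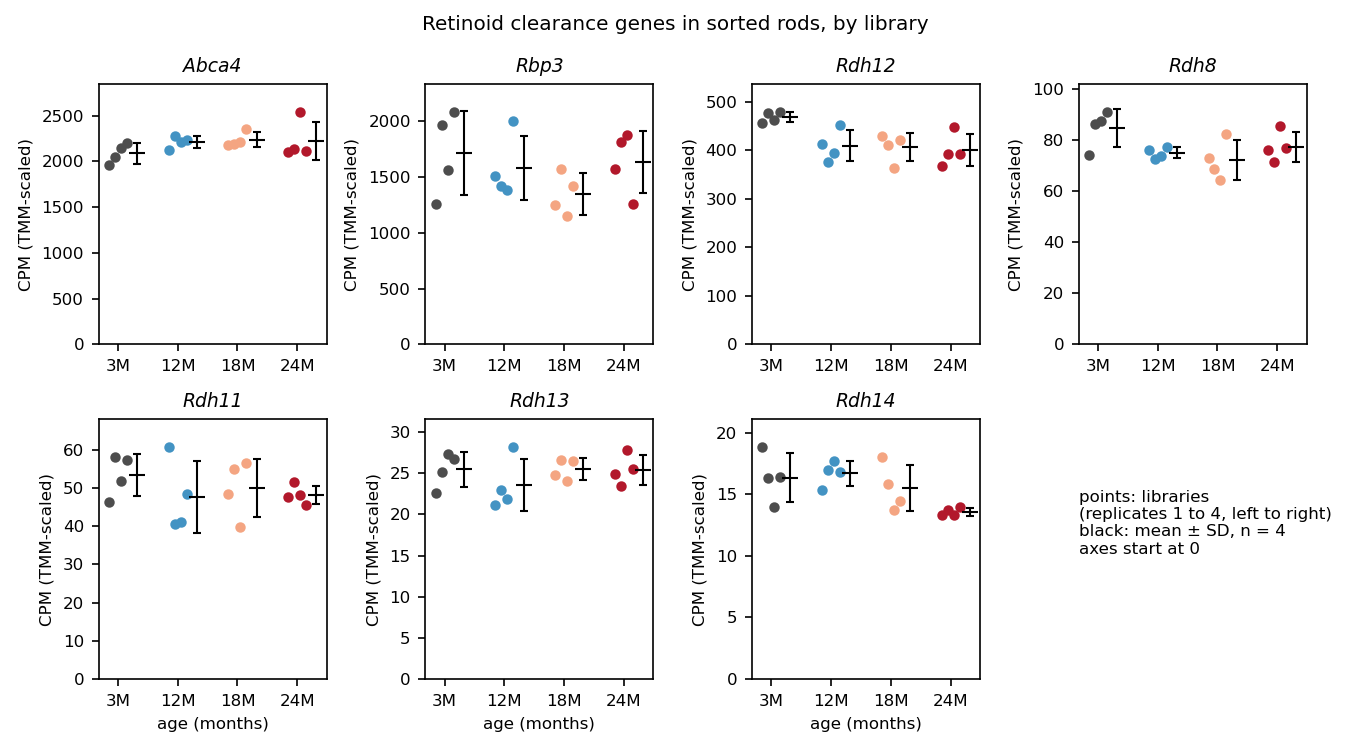
TMM-scaled CPM of each gene by age, with 1 point per library and black bars for mean ± SD at each age (n = 4). The axes start at 0, the Rdh12 points of all later ages lie below its 3M points, and the other genes overlap between ages.

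Much of the Rdh12 count lay on a transcript annotated as holding an intron. Rdh12-204, typed retained_intron and 2753 bases long, took 59.7% of the gene's counts, while the coding transcript Rdh12-201 of 1678 bases took 37.9%. Per length, the share of Rdh12-204 was 35.6% to 54.9% over the libraries. It contains 1 intron, intron 3 of 1109 bases at chr12:79211544-79212652, which lies between 2 coding exons. Its borders, at GENCODE positions on the + strand of GRCm38, are shown with 30 bases to each side, because they are the letters that tell both transcripts apart; capitals mark the exon and lower case the intron.
Rdh12 intron 3, 5′ border, chr12:79211514-79211573: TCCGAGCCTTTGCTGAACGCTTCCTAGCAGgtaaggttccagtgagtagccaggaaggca
Rdh12 intron 3, 3′ border, chr12:79212623-79212682: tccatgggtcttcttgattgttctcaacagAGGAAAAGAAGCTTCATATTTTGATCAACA
The intron opens with GT and closes with AG. Reads are divided between these transcripts by the authors' quantification, since most of their bases are shared, so each level is an estimate.

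The estimated level of Rdh12-204 was 276.2, 270.5, 278.2 and 276.5 CPM in 3M rods, 255.1, 242.3, 247.0 and 221.2 in 12M rods, 252.5, 225.6, 255.6 and 253.8 in 18M rods, and 241.7, 234.1, 226.9 and 251.3 in 24M rods. All later libraries were below all 3M libraries, and the 3M libraries differed little among themselves. The mean was 238 ± 10.4 CPM at 24M and 275 ± 3.34 CPM at 3M (SD, n = 4 each; two-sided exact permutation p = 0.0286, the smallest this design gives, 0.0572 after adjustment over 6 such comparisons). It was 247 ± 14.3 CPM at 18M and 241 ± 14.5 CPM at 12M, each with the same exact permutation p against 3M. The coding transcript Rdh12-201 averaged 152 ± 39.7 CPM at 24M and 182 ± 13.0 CPM at 3M (exact permutation p = 0.171). Its 24M libraries ranged from 118.5 to 208.2 CPM and overlapped the 3M range of 170.1 to 196.5 CPM. These transcript tests were chosen after the values were seen. In the exact permutation test, any full separation of 4 against 4 libraries gives p = 0.0286. The p-values of Rdh12-204 therefore only restate the lack of overlap, and they share the 3M libraries. The adjustment over 6 comparisons does not cover the choice of transcript. How many of all transcripts were lower without overlap, as Rdh12-204 was, was not counted. The share of Rdh12-204 was 60.0 ± 6.67% at 24M and 58.8 ± 1.85% at 3M (difference 1.16 points, exact permutation p = 0.83). The share ran from 49.0% in 12M replicate 4 to 70.3% in 18M replicate 3.

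**Figure D3:**
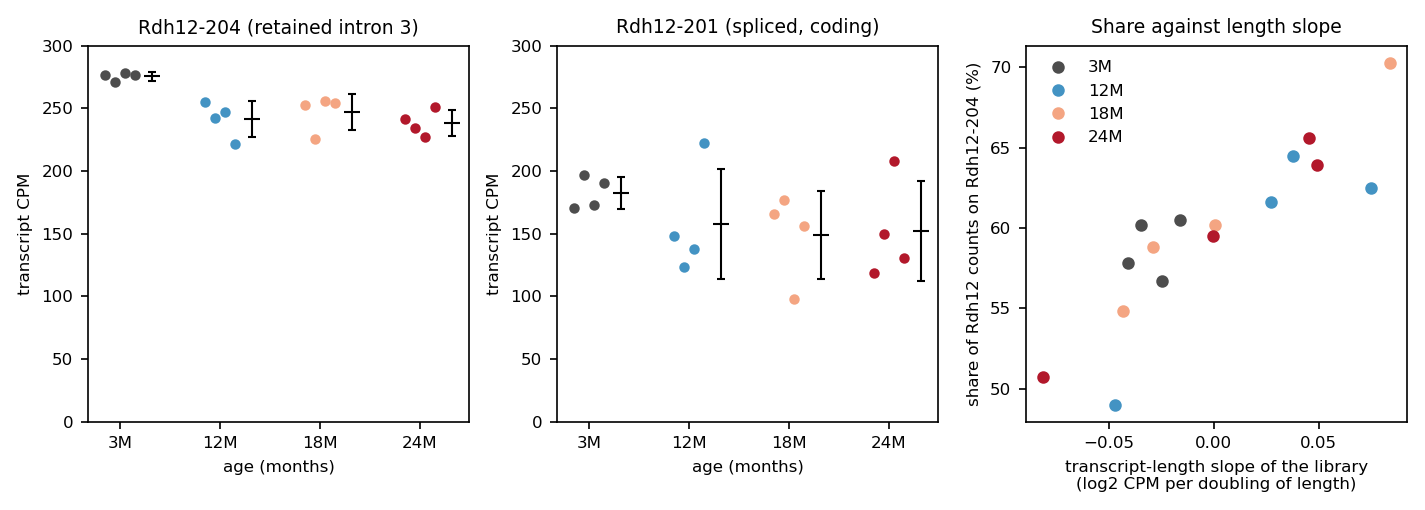
Estimated CPM of the intron-holding transcript Rdh12-204 and the coding transcript Rdh12-201 by age, 1 point per library with black bars for mean ± SD (n = 4), and the share of Rdh12-204 against the transcript-length slope of each library. Rdh12-204 is lower in every later library than at 3M, Rdh12-201 overlaps, and the share follows the slope. How many other transcripts are lower without overlap was not counted.

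Rdh12 also moved with a property of the libraries. The transcript-length slope of a library says how far its log2 CPM, centred on each gene's mean, goes up with each doubling of transcript length. Over the 16 libraries, 8 relations to it were computed. The slope is fitted over all tested genes in these same libraries, and the share of them with such relations was not computed. The p-values below therefore cannot tell if a relation is particular to a member. Their adjustment covers only the 8 relations. Rdh12 gave Pearson r = -0.797 (permutation p = 0.00019, adjusted 0.00076) and Spearman rho = -0.735 (permutation p = 0.0015, adjusted 0.0062). Without the 2 libraries farthest from the median slope r was -0.755, and within ages it was -0.875. The share of Rdh12-204 gave r = 0.879 and rho = 0.929 (permutation p = 1e-05 for both, the smallest that 100000 permutations give, adjusted 8e-05). That r was 0.878 without the 2 farthest libraries and 0.945 within ages. Rdh12-204 is longer than Rdh12-201 (2753 against 1678 bases), and the slope is itself a measure of length. The p-value of this share is therefore no separate result about Rdh12. The slope averaged 0.00322 ± 0.0607 at 24M and -0.0292 ± 0.011 at 3M (SD, n = 4 each), with the 3M libraries close together. With the slope as a covariate the log2 difference of Rdh12 at 24M was -0.17 (edgeR adjusted p = 0.051). Rdh13 gave r = -0.658 and rho = -0.7 (permutation p = 0.0061 and 0.0034, adjusted 0.016 and 0.009), with r = -0.619 without the 2 farthest libraries and -0.65 within ages. Rbp3 gave r = -0.627 and rho = -0.624 (permutation p = 0.011 and 0.012, adjusted 0.021 and 0.024), with r = -0.512 without the 2 farthest libraries and -0.687 within ages. Rdh8 gave r = -0.541 and rho = -0.429 (permutation p = 0.031 and 0.098, adjusted 0.045 and 0.13), with r = -0.368 without the 2 farthest libraries and -0.482 within ages. Rdh11 gave r = -0.538 and rho = -0.506 (permutation p = 0.033 and 0.049, adjusted 0.045 and 0.078), with r = -0.249 without the 2 farthest libraries and -0.464 within ages. Abca4 gave r = -0.242 and rho = -0.188 (permutation p = 0.37 and 0.49), with r = -0.384 without the 2 farthest libraries and -0.507 within ages. Rdh14 gave r = -0.104 and rho = -0.0853 (permutation p = 0.7 and 0.75), with r = -0.161 without the 2 farthest libraries and -0.148 within ages.

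Rdh11, Rdh13 and Rdh14 belong to the same short-chain dehydrogenase family; Rdh11 is a microsomal retinal reductase and Rdh13 a mitochondrial member. Rdh11 (ENSMUSG00000066441, chr12:79174337-79192293, - strand) lies on the other strand, before the start of Rdh12. It stood at 39.88 to 56.5 CPM in 18M rods and 40.56 to 60.62 in 12M rods. It averaged 48.2 ± 2.39 CPM at 24M and 53.3 ± 5.47 CPM at 3M (SD, n = 4 each), with 45.63 to 51.4 CPM in the 24M libraries and 46.31 to 58.09 in the 3M libraries. The ranges overlapped, and the log2 difference was -0.15 (95% interval -0.425 to 0.133, edgeR adjusted p = 0.73). Its counts were split between coding transcripts of 3262 bases (63.4%) and 1673 bases (36.1%), and the share of the longer one was 65.0 ± 4.99% at 24M and 61.5 ± 2.51% at 3M (exact permutation p = 0.286).

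Rdh14 (ENSMUSG00000020621, chr12:10390772-10395562, + strand) had the most negative value at 24M. It stood at 18.82, 16.3, 13.93 and 16.38 CPM in 3M rods, 15.31, 16.94, 17.72 and 16.8 in 12M rods, 18.03, 15.81, 13.73 and 14.45 in 18M rods, and 13.31, 13.74, 13.29 and 13.95 in 24M rods. The 24M libraries lay together at the low end, and 3M replicate 3 was level with them. The mean was 13.6 ± 0.327 CPM at 24M and 16.4 ± 2.0 CPM at 3M (SD, n = 4 each), a log2 difference of -0.27 (SE 0.102, 95% interval -0.486 to -0.0532, unadjusted p = 0.018, adjusted p = 0.2, edgeR). At 18M the log2 difference was -0.08 and at 12M 0.03, and the linear change over 21 months was -0.26 (adjusted p = 0.22).

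Rdh13 (ENSMUSG00000008435, chr7:4424770-4445649, - strand) differed least at 24M in the summed counts, with 25.4 ± 1.81 CPM at 24M and 25.4 ± 2.1 CPM at 3M (SD, n = 4 each). The 24M libraries held 23.44 to 27.79 CPM and the 3M libraries 22.61 to 27.29, a full overlap. The log2 difference was 0.00 (95% interval -0.206 to 0.203, edgeR adjusted p = 1). At 18M it was also 0.00 (adjusted p = 0.99), and at 12M -0.11 (adjusted p = 0.72). Of its counts 34.3% lay on transcripts not typed as coding, mostly a transcript typed retained_intron (26.4%). Rdh13 was also the member for which the authors' gene values departed most from summed transcripts. In 12M replicate 3 the deposited gene table gave 16.3 CPM and the sum of transcripts 21.9 CPM, with 0 counts on the short transcript Rdh13-204. In 18M replicate 2 the deposited value was 31.9 CPM and the sum 26.7 CPM, with 37.4 counts on Rdh13-204. Rdh13-204 is 545 bases long and held 2.57% of the gene's counts. Divided by the ratio of the single-transcript gene Rdh14 in the same library, the ratio of both sources ran from 0.773 to 1.23 for Rdh13 and from 0.91 to 1.07 for Abca4. For Rbp3, which also has a single transcript, it ran from 0.996 to 1.0. The sources used here do not say how the authors formed gene values from transcripts.

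**Figure D4:**
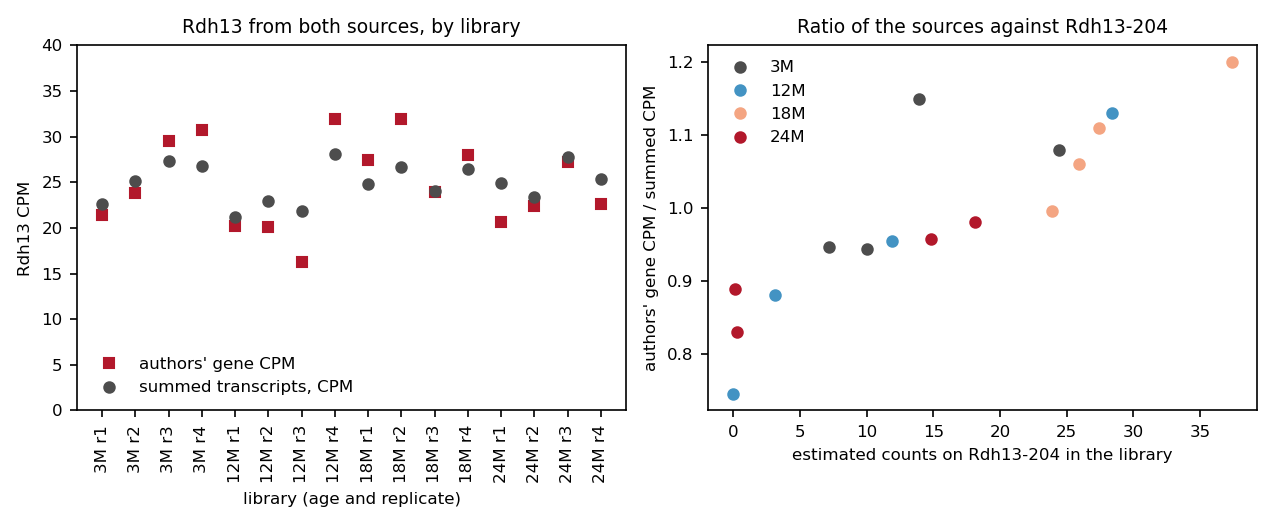
Rdh13 by library in the authors' deposited gene CPM and in CPM from summed transcript counts, and the ratio of both against the counts on the short transcript Rdh13-204. The ratio runs from 0.745, in a library with 0 such counts, to 1.2, in the library with 37.4.

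Rbp3 (ENSMUSG00000041534, chr14:33954003-33964216, + strand), the carrier, varied most in CPM among libraries of an age. Its coefficient of variation was 17.8%, beside a median of 12.9% over tested genes. It stood at 1260, 1964, 1561 and 2080 CPM in 3M rods, 1509, 1420, 1383 and 2004 in 12M rods, 1252, 1569, 1147 and 1422 in 18M rods, and 1574, 1813, 1876 and 1262 in 24M rods. All later ages overlapped 3M, and 2 of the 18M libraries were below all 3M libraries. The mean was 1630 ± 278 CPM at 24M and 1720 ± 377 CPM at 3M (SD, n = 4 each; log2 difference -0.07, 95% interval -0.447 to 0.3, edgeR adjusted p = 0.93). At 18M it was 1350 ± 186 CPM, a log2 difference of -0.35 from 3M (95% interval -0.723 to 0.0252, adjusted p = 0.45). For Rbp3 a change of up to 0.733-fold at 24M lies within the interval.

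The authors' normalized table holds 13 libraries, without 12M replicate 4, 18M replicate 3 and 24M replicate 3. In the authors' deposited table of comparisons, 26.7% of 11826 genes had an adjusted p under 0.05 for any difference among ages, and 2 of the 7 genes were among them. Rdh12 had log2 differences from 3M of -0.26 at 12M, -0.13 at 18M and -0.31 at 24M there, with an adjusted p of 0.00963 in the authors' deposited table. For Rdh13 the authors' deposited table gives -0.43 at 12M, 0.18 at 18M and -0.20 at 24M, with an adjusted p of 0.0138. The other 5 members had adjusted p-values of 0.0824 to 0.443 in the authors' deposited table. In the counts, edgeR on the same 13 libraries called Rdh12 at 24M (log2 difference -0.28, adjusted p = 0.0045) among 2843 genes, against 518 genes with all 16 libraries.

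Of 14 genes of the visual cycle in the RPE, 6 passed the filter on low counts and 0 were called at 24M (edgeR, 0 at an unadjusted p under 0.05). Rpe65, the retinoid isomerase, reached at most 0.203 CPM. Lrat, which esterifies retinol, averaged 0.134 TPM, and Rlbp1, a retinaldehyde carrier of RPE and Müller glia, 8.19 TPM. Of 22 other retinol and retinal oxidoreductases, 11 were tested and 2 rose at 24M (2.65% of all tested genes rose), both retinol dehydrogenases on chromosome 10. Rdh1 held 32.03, 41.95, 43.14 and 44.36 CPM at 24M and 15.34, 18.0, 22.48 and 26.04 CPM at 3M, sorted by level, with no overlap (log2 difference 0.98, SE 0.17, edgeR adjusted p = 0.0025). Rdh16 held 14.98, 16.01, 16.69 and 17.93 CPM at 24M and 10.5, 10.83, 13.12 and 13.42 CPM at 3M (log2 difference 0.45, SE 0.11, adjusted p = 0.019). The Rdh16 call was lost with 3M replicate 2 (adjusted p = 0.085), 3M replicate 4 (0.074), 24M replicate 2 (0.051) or 24M replicate 4 (0.075) left out. Their neighbour Rdh9 averaged 8.17 ± 2.15 CPM at 24M and 3.94 ± 1.63 CPM at 3M (adjusted p = 0.051) and was not called. Rdh19, beside Rdh16, averaged 2.71 ± 0.813 CPM at 24M and 2.59 ± 0.327 CPM at 3M. Also on chromosome 10, Rdh5 averaged 2.21 CPM at 24M and 3.21 at 3M, and Rdh7 0.123 and 0.0. Rdh19, Rdh5 and Rdh7 were below the filter and were not tested. Rdh1, Rdh16 and Rdh9 share sequence with other genes, in 27.9% of the 31-base words of Rdh1, 23.2% of Rdh16 and 72.0% of Rdh9. Their separate levels are therefore uncertain. Among the 7 members this share was at most 4.16%, for Rdh12.

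By Pearson correlation of log2 CPM over the 16 libraries among 10286 protein-coding genes, genes most like Rdh12 were Nxnl1 (r = 0.95), Aipl1 (0.939) and Pgp (0.935). Nearest to Rbp3 were Cdhr1 (0.959) and Clstn1 (0.915), and nearest to Abca4 were Arhgef1 (0.938), Gripap1 (0.895) and Kif21b (0.894). Rdh8 was nearest to Cep89 (0.916), Bbs1 (0.907) and Slc19a1 (0.898), and Rdh11 to Lrit1 (0.926) and Phax (0.906). Rdh13 was nearest to LTO1 (0.927), Chaf1a (0.919) and Zfp408 (0.908), and Rdh14 to Sod2 (0.852), Ppp3cc (0.848) and Rnf11 (0.828). Among the members themselves the highest r was 0.741, between Rdh12 and Rdh8. All these values share libraries, depth and the length slope, and describe likeness over these 16 libraries only.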

How the data were processed

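RNA of sorted rods was measured in 16 libraries of 4 ages. The authors deposited estimated counts per transcript, gene values as CPM signal, normalized CPM signal of 13 libraries, and a table of comparisons with log2 differences, an F score, p-values and adjusted p-values, per the file headers. Per the submitters' processing notes, the build was GRCm38.p4 and the tools included limma 3.32.2, edgeR 3.13.9 and kallisto 0.42.5, in no stated role. For the annotation, strand setting and the step from transcripts to genes, the sources used here give nothing.

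From these files, 111896 of 113468 transcripts were matched to GENCODE genes of GRCm38. Summing and rounding these estimated counts gave 45038 genes; unmatched transcripts held 0.73% to 1.082% of a library. The 12177 genes that reached 5 CPM in 4 or more libraries, all 7 members included, were tested with edgeR 4.0.16 in R 4.3.3, using TMM factors and 1 mean for each age across the 16 libraries; adjusted p-values are Benjamini-Hochberg values and calls are under 0.05. The common biological coefficient of variation was 0.169. Fitting was tested on simulated data, but no rates of recovery or false calls are given here. That test therefore says nothing about changes as small as those of the members. No pair of libraries agreed within sampling noise (lowest chi-square per degree of freedom 8.99). Depth was 20579144 to 28791777 estimated counts. TPM used GENCODE transcript lengths. It served to order genes, to show the spread of Abca4 and to set the ages of Rdh12 side by side. No test was run on TPM. Transcript shares were compared by exact permutation, with a smallest p of 0.0286. Counts after PCR are not independent molecules.

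The members and gene lists were chosen with earlier results of these data known. Genes outside the members were named where called, or as the 3 most correlated genes of a member; some genes that this rule names are not reported here. Alternatives were DESeq2 1.42.0, limma 3.58.1 voom with and without quality weights, other size factors, filters and pseudocounts, the authors' 13 libraries, the length slope as a covariate, a replicate block, single ages and each library left out; limma on the deposited CPM of 16 libraries was added after seeing the data.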

Additional observations from a re-analysis of the deposited data

Results flagged for a closer look

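In groups of 4 libraries, a value was examined further where its gap to the nearest other library, over the whole range, passed Dixon's 95% critical value. Of 28 groups (7 genes at 4 ages) 2 passed, and chance gives about 1 in 20 groups. Both were Abca4: 18M replicate 4 at 2358 CPM stood above the other 18M libraries at 2181 to 2206 CPM, and 24M replicate 3 at 2535 CPM stood above the other 24M libraries at 2103 to 2132 CPM. 24M replicate 3 is also a library that the authors' normalized table leaves out.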

How the results depend on the processing

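Over 29 alternatives for each 24M value, Abca4 stayed positive (0.02 to 0.12) and Rdh12 (-0.31 to -0.17), Rdh14 (-0.34 to -0.20), Rdh8 (-0.19 to -0.09) and Rdh11 (-0.21 to -0.08) negative, on the log2 scale. Rdh13 changed sign with limma voom (0.00374), the length slope (0.0538), the replicate block (0.000648) and single libraries left out (-0.0551 to 0.0353). Rbp3 did so with the length slope (0.0398) and single libraries left out (-0.196 to 0.032), and the Rdh12-204 share with single libraries left out (-0.73 to 4.24 points). The cause was not tested.

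The number of the 7 genes called, 0 in each test, became with quality weights 4 at 12M, 1 at 18M, 2 at 24M, 4 by F-test and 1 by linear age. With the authors' normalized CPM (both pseudocounts) it was 2 at 12M, 1 at 24M, 2 by F-test and 1 by linear age, and with edgeR on those 13 libraries 2, 1, 1 and 1. The linear test also called 1, Rdh12, with DESeq2, with the length slope and without 24M replicate 3. Leaving out single libraries gave 0 to 1 calls for linear age and 0 to 0 for the others. All genes called at 24M were 3311 with quality weights, 2519 and 2540 with the authors' CPM (pseudocounts 0.5 and 2), 2843 with 13 libraries, 1394 with the length slope, and 518 in the reported fit.

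Libraries with the same replicate number did not deviate together on average (mean r 0.0184 over 24 pairs, from -0.744 to 0.726, 11 above 0.1). With so wide a range, this mean cannot settle if the numbers pair libraries. A fit with the replicate block called 0 of the 7 genes in every test and 444 genes at 24M.

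The Rdh16 call was lost with no filter (adjusted p 0.051) and in a fit of the compared ages alone (0.077). Rdh1 and Abca1 stayed called in all 29. The spread of 4 libraries sets the limit for Rbp3 and Rdh11, whose 24M intervals are the widest of the 7.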

Other observations

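Some other genes that handle retinoids or lipids were called at 24M. Of 16 genes of retinoic acid synthesis, breakdown and signalling, 5 were tested and 2 rose, both retinoic acid receptors (edgeR, Benjamini-Hochberg), where 2.65% of all tested genes rose. Rarb stood at 34.0 ± 3.18 CPM at 24M and 24.0 ± 3.06 CPM at 3M (SD, n = 4 each; log2 difference 0.50, adjusted p = 0.012), with 29.52 to 36.92 CPM in 24M libraries and 20.66 to 28.08 in 3M libraries. Rarg stood at 7.04 ± 1.53 CPM at 24M and 3.95 ± 0.635 CPM at 3M (log2 difference 0.84, adjusted p = 0.019). In Rarb 35.7% of 31-base words occur in other genes, so its level is less certain. Rarb lost its call without 24M replicate 1 (adjusted p = 0.05 in the edgeR fit), and Rarg without 3M replicate 1 (0.061), 2 (0.078) or 3 (0.063).

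Of 15 transporters of the Abca family, 9 were tested and 1 rose, beside 2.65% of all tested genes: Abca1, the cholesterol exporter, held 149.3, 177.1, 194.0 and 235.8 CPM at 24M and 75.39, 77.02, 77.89 and 81.89 CPM at 3M (log2 difference 1.28, adjusted p = 5.7e-05). All 9 log2 differences were positive, with a median of 0.16 beside 0.01 for all tested genes. Apart from Abca1, the edgeR adjusted p-values were 0.41 or more. The share of genes of like transcript length with a positive difference was not counted. The transcript-length slope averaged 0.00322 at 24M and -0.0292 at 3M, and its part in these signs was not tested. Of 10 aldehyde and glutathione genes 4 were tested and 0 were called, with 3 at an unadjusted p under 0.05 in the same edgeR fit. Over all tested genes 4.25% were called and 14% had an unadjusted p under 0.05. Of 14 genes of carotenoid and retinoid uptake 3 were tested and 0 were called, with 0 at an unadjusted p under 0.05.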
